A study of Rattus norvegicus with 8 samples.

Results

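Cells show fragments of their proteins to T cells on molecules of the major histocompatibility complex (MHC), and the genes described here encode that machinery. For class I, the proteasome cuts cytosolic proteins, with the immune subunits Psmb8, Psmb9 and Psmb10 replacing the constitutive Psmb5, Psmb6 and Psmb7 after interferon. The transporter Tap1-Tap2 moves the peptides into the endoplasmic reticulum, tapasin (Tapbp) loads them onto a class I heavy chain, and beta-2 microglobulin (B2m) completes the complex. Class II molecules are found mainly on professional antigen-presenting cells, where the invariant chain Cd74 guards their groove. Nlrc5 and Ciita are the master coactivators of class I and class II genes.

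The genes were chosen by name, as 10 listed symbols, and 9 of them matched a row among the 13613 genes of the deposited table. Tap2 matched no row by symbol and is not analysed here. The study cultured primary rat nucleus pulposus cells, the cells at the centre of the intervertebral disc, that had grown out of tissue explants. They were transduced with the control vector (PLKO1, 4 libraries) or with an shRNA (shTon, 4 libraries) that targets TonEBP, the osmosensitive factor encoded by Nfat5. All 8 cultures, controls included, were given 110 mM of added NaCl for 8 h, so no culture was kept without added salt. Each group holds a single library from each of Sets 1 to 4, and the labels do not say what a Set is or whether the Sets came from separate animals. The p-values therefore measure the spread between these samples, which may be partly technical.

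Libraries held between 9567488 and 15782202 reads on the listed genes. Values are normalized counts, that is, reads divided by a size factor of the library, and are not adjusted for gene length, so levels are compared between libraries and not between genes. Nfat5 measured 1682, 2332, 1677 and 942 normalized counts in control libraries 1 to 4 and 1094, 872, 459 and 414 in knockdown libraries 1 to 4. It was lower in all 4 Sets, at 65.0%, 37.4%, 27.4% and 43.9% of the paired control, although control library 4 lay below knockdown library 1. Of the defining nucleus pulposus markers, Col2a1 reached at most 8.76 normalized counts in any library, while T, Krt19 and Acan matched no row and are not analysed here. The other listed markers of that tissue differed in level. Foxf1 stood at 154 to 262, Krt8 at 77.1 to 865, Cdh2 at 66.7 to 699, Pax1 at 31.9 to 223 and Cd24 at 7.39 to 498 normalized counts. Sox9, Krt18 and Car12 were low, at most 29.2, 24.7 and 13.1, and Sox9 and Krt18 were at 0 in some libraries.

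Many class I pathway genes carry an interferon-stimulated response element (ISRE) close to their start. The sequences of 4 promoters are shown: 3 that hold this element and that of Psmb9, which faces Tap1 and whose searched window holds none. The windows searched are the 250 bases before the start in RefSeq's promoter table of build GRCr8. For 5 of the 8 genes in that table the window reaches into the annotated gene, so for B2m and Psmb9 the last 94 and 48 bases of it are left out below. The sequences are read 5′ to 3′ on the strand of the gene. Capitals mark matches, on either strand, to the ISRE core searched, which is GAAA, any 2 bases and GAAA.
B2m, chr3:129549080-129549235, plus strand: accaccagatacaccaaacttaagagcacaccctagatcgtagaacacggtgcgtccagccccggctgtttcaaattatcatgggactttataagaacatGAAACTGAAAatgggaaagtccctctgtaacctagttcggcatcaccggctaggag
Tap1, chr20:4668544-4668793, minus strand: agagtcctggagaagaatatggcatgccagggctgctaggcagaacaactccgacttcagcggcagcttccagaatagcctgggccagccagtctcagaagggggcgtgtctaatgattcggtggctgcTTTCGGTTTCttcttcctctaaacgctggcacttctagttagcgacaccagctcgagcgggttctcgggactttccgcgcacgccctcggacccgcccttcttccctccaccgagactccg
Psmb9, chr20:4668750-4668951, plus strand: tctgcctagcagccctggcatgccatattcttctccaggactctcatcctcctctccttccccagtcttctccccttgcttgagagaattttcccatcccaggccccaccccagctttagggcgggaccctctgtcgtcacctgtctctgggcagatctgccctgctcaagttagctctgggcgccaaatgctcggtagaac
Psmb10, chr19:50743293-50743542, minus strand: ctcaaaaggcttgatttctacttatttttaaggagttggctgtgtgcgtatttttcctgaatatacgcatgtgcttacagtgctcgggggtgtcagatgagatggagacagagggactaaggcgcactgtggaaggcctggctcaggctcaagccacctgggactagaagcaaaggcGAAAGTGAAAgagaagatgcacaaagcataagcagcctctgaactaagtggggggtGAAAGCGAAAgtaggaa

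The ISRE core was present in 5 of the 8 listed genes with a promoter in the table (B2m, Tap1, Tap2, Tapbp and Psmb10), against 3.41% of all 33465 promoters of the same length. Tapbp and Psmb10 each held 2 matches. Those of Tapbp overlap each other and lie in the part of its window inside the annotated gene. In Tap1 the match lies on the opposite strand, from base -121 to -112 before the start. Tap1 and Psmb9 are divergent neighbours with 408 bases between the annotated genes. The Tap1 match lies within these 408 bases, so upstream of Psmb9 too, but beyond the far end of the Psmb9 window. That window itself held no match, which does not show that Psmb9 lacks the element. A pattern searched with TonEBP in mind was GGAAA, any 5 bases and C. It was found in 2 of the 8, Psmb9 and Cd74, against 16.6% of all promoters. Its spacing was not checked against published TonEBP sites, so these are not counts of the element that TonEBP binds. The NF-kB motif, searched as GGG, any 5 bases and CC, was found in 5 of the 8 and in 42.3% of all promoters. The core of the X2 box, TGACG, was found in B2m and Psmb9 and in 18.2% of all promoters. The core of the Y box, ATTGG, was found in B2m, Psmb8 and Cd74 and in 34.0% of all promoters. These motifs were searched on both strands. These matches describe letters in a window and do not show binding.

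None of the 9 antigen presentation genes changed beyond the test's threshold after TonEBP knockdown, while most of them differed strongly between Sets. With limma, a linear model on log2(normalized counts + 1) with the Set as a block, 8 of the 9 lay below 0 and Tap1 lay above 0, against 49.9% of the 12383 genes tested below 0. Their median log2 difference was -0.31, and that of all genes 0.00044. All 9 passed the filter on low values. The fit called 0 of the 9, and 0.0% of all genes in either direction, at an adjusted p under 0.05. At an unadjusted p under 0.05 it had 3 of the 9 (Nlrc5, Psmb9 and Tapbp, all lower), against 23.1% of all genes, 12.0% lower and 11.1% higher. Without the Set in the model limma called 0 of the 9, and 0.00808% of all genes lower. With the Set as a block, edgeR and DESeq2 each had 4 of the 9 at an unadjusted p under 0.05. The limma count was 0 without the Set in the model, 0 without Set 2 and 1 without Set 4. The share of all genes was not computed for these counts, so they are not read as a result about the 9. After adjustment, edgeR and DESeq2 with the Set as a block called 0 of the 9. Over all genes edgeR called 0.0% in either direction, and DESeq2 called 4.23% higher and 5.32% lower. The authors' deposited table also calls 0 of the 9 at an adjusted p under 0.05, against 9.31% of the genes with a value there (4.09% higher and 5.22% lower), and its adjusted p for these 9 runs from 0.142 to 0.804.

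Within Sets the direction was often the same. Of the 9, 6 were lower in the knockdown in all 4 Sets (Tapbp, Psmb9, Psmb10, Cd74, Nlrc5 and Ciita), against 16.2% of all genes tested. For 3 of them the direction in Set 3 rests on few reads, in control and knockdown 9 and 3 for Nlrc5 and 4 and 0 for Ciita. Cd74 held 2 reads in each library of Set 3, so its lower value there comes from the size factors alone. Tap1 was higher in all 4 Sets, against 17.0% of all genes. The control and knockdown libraries overlapped for each of the 9, whereas they did not overlap for 6.34% of all genes.

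**Figure D1:**
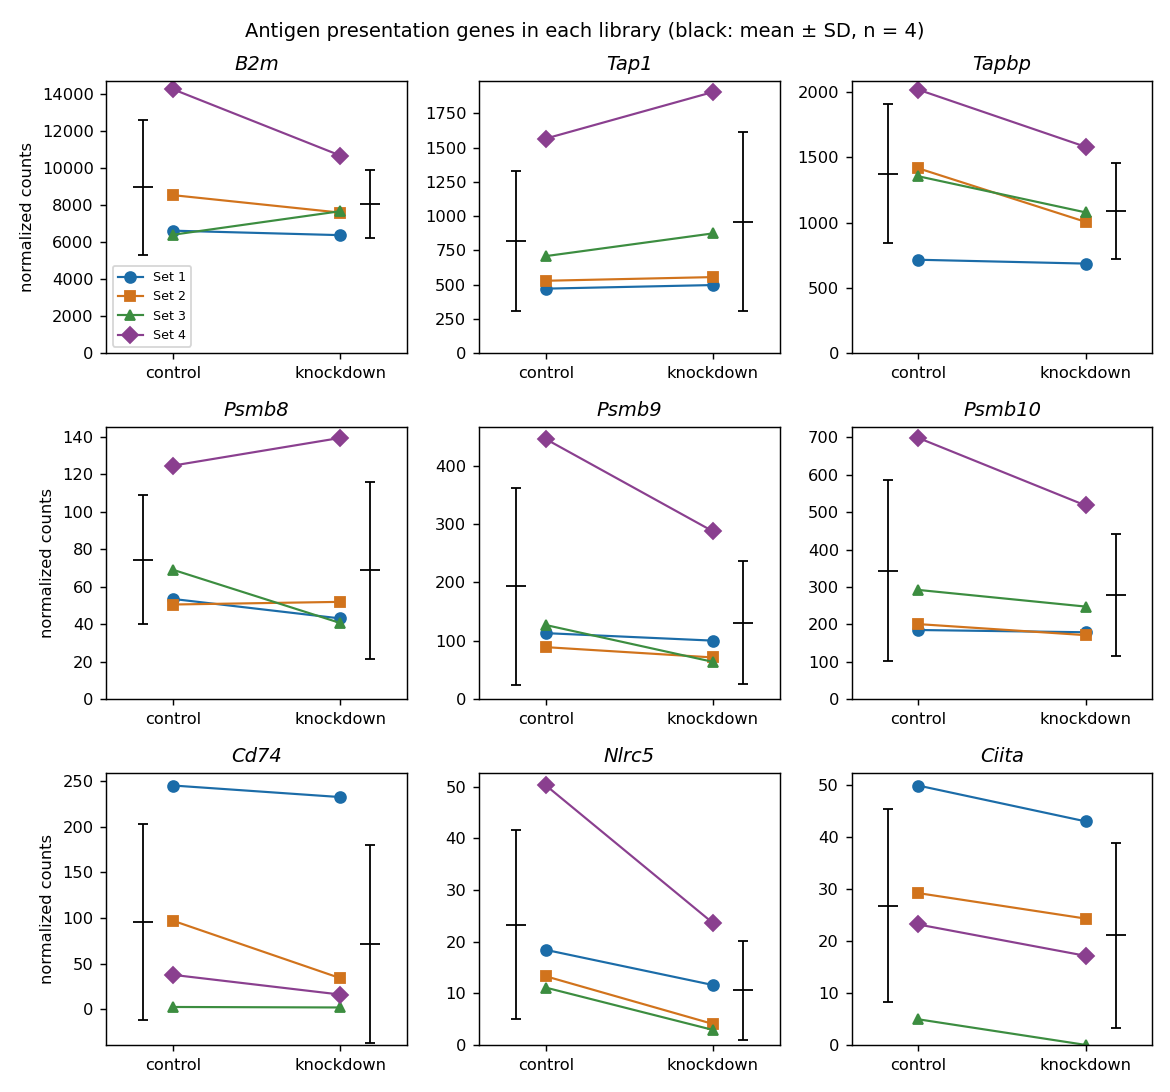
Normalized counts (y axis, own scale per panel) of the 9 genes in control and knockdown libraries (x axis). Lines join the libraries of a Set and black bars give the mean ± SD of 4 libraries; Set 4 is the highest Set for 7 genes, and Set 1 for Cd74 and Ciita.

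The class I coactivator Nlrc5 showed the largest difference of the 9. It measured 18.4, 13.3, 11.1 and 50.2 normalized counts in control libraries 1 to 4 and 11.6, 4.06, 2.90 and 23.6 in knockdown libraries 1 to 4. Each knockdown library lay below its own control, at 63.0%, 30.5%, 26.2% and 47.0% of it, but knockdown library 4 exceeded control libraries 1 to 3. The group values were 23.3 ± 18.3 and 10.5 ± 9.52 (SD, n = 4). The log2 difference was -1.20 (SE 0.334, 95% interval -2.003 to -0.40, limma adjusted p = 0.112). These values rest on few reads, from 3 to 52 per library, and the log2 difference was -0.74 with a pseudocount of 8.

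The peptide transporter gene Tap1 (ENSRNOG00000000457) measured 471, 529, 709 and 1565 normalized counts in control libraries 1 to 4. Knockdown libraries 1 to 4 measured 498, 556, 874 and 1905. Tap1 was thus higher in each Set, at 106%, 105%, 123% and 122% of the paired control, by differences much smaller than those between Sets. The log2 difference was 0.18 (SE 0.108, 95% interval -0.07 to 0.44, limma adjusted p = 0.354).

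Psmb9, the neighbour that faces Tap1 across the shared upstream stretch printed above and encodes an immunoproteasome subunit, ran the other way in every Set. It measured 113, 89.0, 127 and 445 normalized counts in control libraries 1 to 4 and 100.2, 71.4, 63.8 and 287 in knockdown libraries 1 to 4. The log2 difference was -0.52 (SE 0.192, 95% interval -0.98 to -0.07, limma adjusted p = 0.174). Both libraries of Set 4 were the highest of their group, and knockdown library 4 exceeded control libraries 1 to 3. The ratio of Tap1 to Psmb9 normalized counts was 4.17, 5.94, 5.58 and 3.51 in control libraries 1 to 4 and 4.97, 7.78, 13.7 and 6.63 in knockdown libraries 1 to 4. Within Sets 1 to 4 that ratio was 1.19, 1.31, 2.45 and 1.89 times as high in the knockdown as in the control. This pair was singled out after its values were seen, so the ratio is given without a test.

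The other immune subunits differed less between control and knockdown. Psmb8 measured 53.4, 50.5, 69.0 and 125 normalized counts in control libraries and 43.1, 51.9, 40.6 and 139 in knockdown libraries 1 to 4, lower in 2 Sets and higher in the other 2. Its log2 difference was -0.21 (95% interval -0.76 to 0.33, limma adjusted p = 0.611). Psmb10 measured 185, 201, 292 and 699 normalized counts in control libraries and 179, 171, 248 and 518 in knockdown libraries, lower in every Set. Its log2 difference was -0.24 (95% interval -0.55 to 0.08, limma adjusted p = 0.332).

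Each immune subunit was also set against the constitutive subunit whose place it takes, which removes library scaling. The log2 ratio of Psmb8 to Psmb5 was -4.20 ± 0.623 in control and -4.46 ± 0.852 in knockdown libraries (SD, n = 4; exact permutation test, 2-sided, p = 0.600). For Psmb9 over Psmb6 it was -0.73 ± 0.738 and -0.90 ± 0.949 (SD, n = 4; exact permutation p = 0.714), and for Psmb10 over Psmb7 it was -2.76 ± 0.876 and -2.84 ± 0.756 (SD, n = 4; exact permutation p = 0.914). After adjustment over the 3 ratios each exact p was 0.914, where the smallest raw p that 4 libraries against 4 can give is 0.0286. This test exchanges all 8 libraries and leaves out the pairing by Set. With exchange within Sets only, added after the data were seen, the exact p was 0.5, 0.75 and 0.625, and the smallest possible is 0.125. Set 3 differed most, with knockdown-minus-control log2 ratios of -0.85, -1.003 and -0.44 for Psmb8, Psmb9 and Psmb10, whereas in Set 1 those of Psmb9 and Psmb10 were 0.35 and 0.20. Psmb6 stands in the table as 2 rows, with up to 318 and up to 49.1 normalized counts, which were summed. Reads shared between such copies could not be checked, so its ratio is uncertain. Of the constitutive genes, Psmb5 was at 1295 ± 41.6 and 1340 ± 54.0 and Psmb7 was at 2035 ± 397 and 1809 ± 200.3 normalized counts (SD, n = 4). The interferon-inducible proteasome activator genes Psme1 and Psme2 had log2 differences of 0.06 and 0.32 (limma adjusted p = 0.797 and 0.542).

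Tapbp, the loading chaperone, measured 716, 1415, 1354 and 2017 normalized counts in control libraries 1 to 4 and 686, 1006, 1078 and 1580 in knockdown libraries 1 to 4. It was at 95.9%, 71.1%, 79.6% and 78.3% of the paired control, with a log2 difference of -0.31 (95% interval -0.58 to -0.04, limma adjusted p = 0.177). B2m, the light chain, measured 6615, 8530, 6397 and 14239 normalized counts in control libraries and 6373, 7588, 7665 and 10666 in knockdown libraries. It was lower in 3 Sets and higher in Set 3, with a log2 difference of -0.09 (95% interval -0.45 to 0.26, limma adjusted p = 0.739). For both genes the group ranges overlapped, with the highest value of either group in Set 4.

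**Figure D2:**
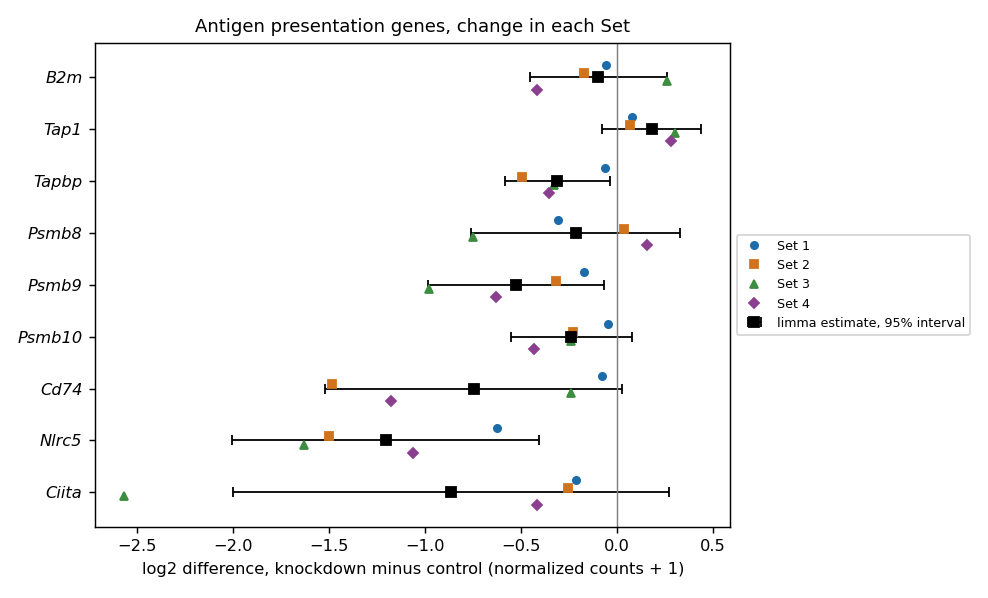
Log2 difference of normalized counts + 1, knockdown minus control (x axis), for the 9 genes (y axis). Black squares and bars give the limma estimate with its 95% interval and coloured points each Set; Tap1 lies above 0 in all 4 Sets, and Ciita reaches -2.57 in Set 3, where the knockdown library held 0 reads.

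The class I heavy chains, which rat nomenclature names RT1, mostly had log2 differences above 0. Among the 17 class I rows whose symbol begins with RT1-, 15 were tested and 12 had a log2 difference above 0, while 49.9% of all genes lay below 0. Of the 15, 9 were higher in all 4 Sets (17.0% of all genes were), and the median of the 15 was 0.27. Limma called 0 of the 15, with 6 at an unadjusted p under 0.05, of which 5 were higher, against 23.1% of all genes, 11.1% higher. RT1-A2, a classical class I gene, measured 1968, 1876, 1294 and 2168 normalized counts in control libraries 1 to 4 and 2309, 2405, 1627 and 2923 in knockdown libraries 1 to 4. Each knockdown library was above its own control, and the groups overlapped. The log2 difference was 0.34 (SE 0.0999, limma adjusted p = 0.124). RT1-CE16 measured 2363, 2705, 2086 and 2783 normalized counts in control libraries and 2760, 3457, 2546 and 3673 in knockdown libraries, a log2 difference of 0.32 (limma adjusted p = 0.137). RT1-CE2, at 0.38, and RT1-T24-1, at 0.63, were higher in all 4 Sets too (limma adjusted p = 0.122 and 0.165).

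RT1-N3 had the lowest log2 difference of the 15. It stood at 67.5, 141, 193 and 175 normalized counts in control libraries 1 to 4 and 48.8, 71.4, 93.8 and 119 in knockdown libraries 1 to 4. It was lower in all 4 Sets, with a log2 difference of -0.75 (limma adjusted p = 0.0991). RT1-N3 is the single RT1 class I gene called in the authors' deposited table (log2 -0.67, adjusted p = 0.0243). That table calls 5.22% of all genes lower and 4.09% higher, so this count is not read as a result about the RT1 genes. RT1-M3-1 and RT1-S3 were also below 0, at -0.23 and -0.10, and differed in sign between Sets. Several RT1 class I genes are known to be close in sequence, which was not measured here, and how the authors' counting shared reads among them is not given in the sources used here, so the value of any single copy is uncertain. The difference between these heavy chains and the loading genes was not tested.

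**Figure D3:**
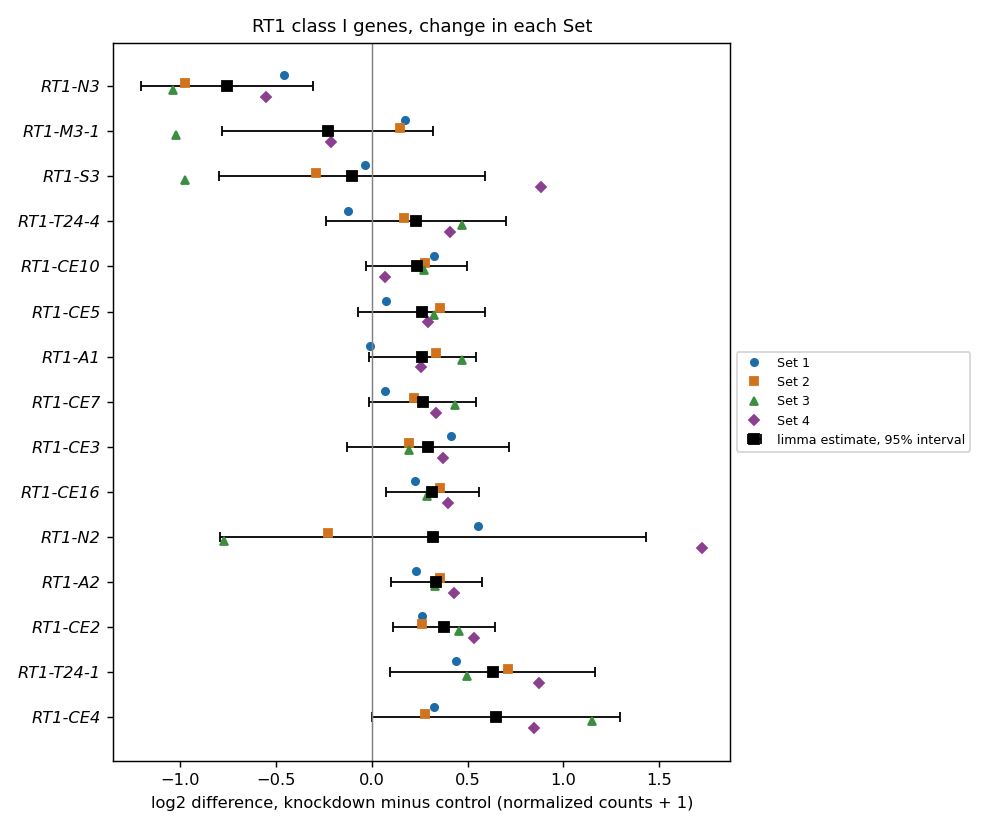
Log2 difference of normalized counts + 1, knockdown minus control (x axis), for the 15 tested RT1 class I genes (y axis), as limma estimates with 95% intervals (black) and single Sets (coloured). The estimates run from -0.75 for RT1-N3 to 0.65 for RT1-CE4, and 12 of the 15 lie above 0.

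Class II genes spanned a wide range between Sets. Cd74 measured 245, 97.0, 2.46 and 37.7 normalized counts in control libraries 1 to 4 and 233, 34.1, 1.93 and 16.1 in knockdown libraries 1 to 4. Both libraries of Set 1 were high and both of Set 3 held only 2 reads each, a 109-fold span between the Set means. The log2 difference for knockdown was -0.74 (SE 0.323, 95% interval -1.52 to 0.03, limma adjusted p = 0.230). Ciita, the class II coactivator, measured 49.9, 29.2, 4.93 and 23.2 normalized counts in control libraries and 43.1, 24.3, 0 and 17.2 in knockdown libraries. Its order over Sets (1, 2, 4, 3) was that of Cd74. The 0 in knockdown library 3 allows up to 2.90 normalized counts (3 reads; counting error only). The log2 difference of Ciita was -0.86 (95% interval -1.999 to 0.28, limma adjusted p = 0.325), and it was -0.29 without Set 3 and -0.35 with a pseudocount of 8.

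The class II chains themselves followed the same Sets. RT1-Db1, a beta chain, measured 111, 62.4, 0 and 39.6 normalized counts in control libraries 1 to 4 and 92.7, 30.0, 0 and 31.1 in knockdown libraries 1 to 4 (log2 difference -0.41, limma adjusted p = 0.453). RT1-Ba and RT1-Da, an alpha chain each, reached 43.8 and 57.8 normalized counts in control library 1, were at 0 in both libraries of Set 3 and were left out of the fit by the filter on low values.

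Among the tested markers of macrophages and dendritic cells, Csf1r, Cd68, Cd53, Itgax and Flt3 had their highest mean in Set 1, and Cd14 in Set 4. The lowest mean was in Set 3 for Cd53 and Itgax, in Set 2 for Cd68 and in Set 4 for Csf1r and Flt3. Csf1r, the receptor that macrophages need for growth, measured 214, 46.5, 37.0 and 1.93 normalized counts in control libraries 1 to 4 and 156, 31.6, 6.77 and 9.65 in knockdown libraries 1 to 4. Lcp1, a leukocyte actin-bundling protein gene named here after its values were seen, measured 110 and 157 in the libraries of Set 1 and at most 3.99 in any other. The other untested macrophage and dendritic rows reached at most 18.4 normalized counts. Their highest value was in Set 1 for Itgam and Ccr7, in Set 2 for Mrc1 and Fcer1g and in Set 4 for Emr1. Of the 20 macrophage and leukocyte entries, 9 matched a row, and their summed normalized counts ran from 568 to 957 in control and from 417 to 763 in knockdown libraries. That sum is carried largely by Cd14, at 278 to 604, whose mean was lowest in Set 1 and highest in Set 4 (295, 458, 445 and 519 in Sets 1 to 4). The leukocyte-defining Ptprc, the B cell marker Cd79a and the T cell marker Cd3e matched no row and are not analysed here. Of the dendritic and B cell entries, 3 of 8 matched, summing to 12.3 to 134 normalized counts in control and 26.8 to 112 in knockdown libraries. In these bulk samples fewer cells of a type and less RNA per cell cannot be told apart, and the part of such cells in the class II values was not tested. With knockdown, 4 of the 4 tested macrophage markers lay below 0, against 49.9% of all genes. They were Cd68 (log2 -1.22, limma adjusted p = 0.115), Cd53 (-1.23, 0.101), Csf1r (-0.35, 0.768) and Cd14 (-0.13, 0.696), the last 2 higher in Set 4. Flt3 and Itgax, 2 of 2 tested dendritic and B cell entries, lay above 0. Of the macrophage rows not tested, Lcp1 and Fcer1g lay above 0 in the authors' deposited table, and Mrc1, Itgam and Emr1 below 0. The authors' deposited table calls Cd68 lower (log2 -0.94, adjusted p = 0.0178).

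**Figure D4:**
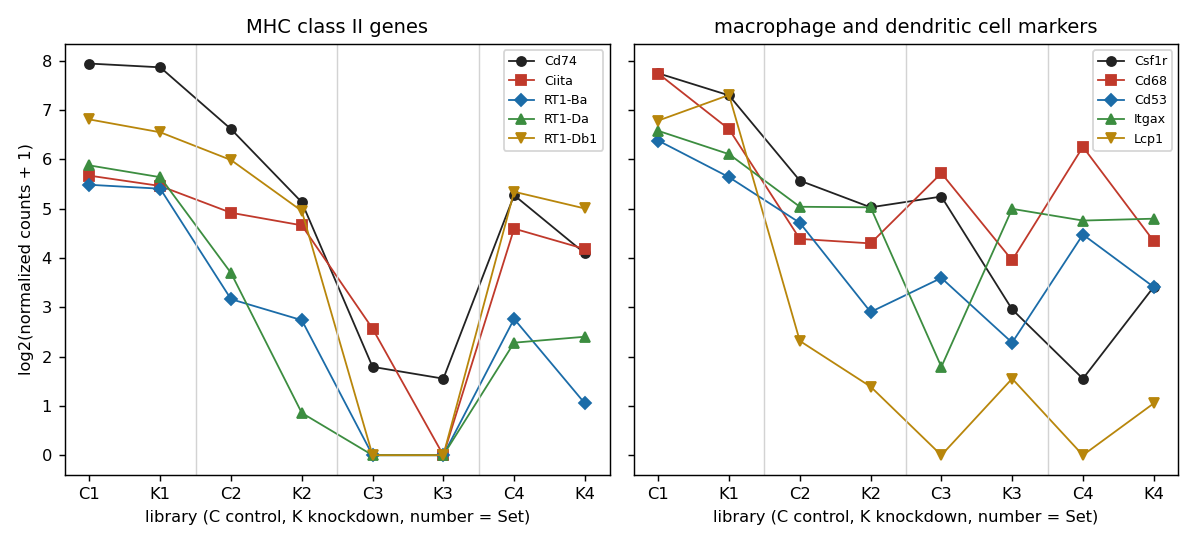
Log2(normalized counts + 1) (y axis) in each library (x axis, C control and K knockdown, by Set) for MHC class II genes and for macrophage and dendritic cell markers. Cd74 and the class II chains are highest in Set 1 and at or near 0 in Set 3. The markers drawn, Csf1r, Cd68, Cd53, Itgax and Lcp1, are a part of those listed and are highest in Set 1. Of those not drawn, Cd14 has its lowest mean in Set 1 and its highest in Set 4. Mrc1 and Fcer1g have their highest value in Set 2 and Emr1 in Set 4, while Itgam, Ccr7 and the mean of Flt3 are highest in Set 1.

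The spread between Sets was tested with the Set term of the same fit. It passed at an adjusted p under 0.05 for 8 of the 9 genes, from 0.00218 for Cd74 and 0.00252 for Tap1 to 0.0492 for Psmb8, against 20.1% of all genes tested, and B2m was at 0.0600. Set 4 had the highest mean for the 6 class I genes and Nlrc5, and Set 1 for Cd74 and Ciita. The term was added after the values were seen. Psmb9 averaged 107, 80.2, 95.4 and 366 normalized counts in Sets 1 to 4, and Tap1 484, 542, 791 and 1735. Without Set 4 the term passed for 3 of the 9, namely Cd74, Ciita and Tapbp (the last at 0.04999), and without Set 1 for Cd74, Tap1, Psmb9 and Psmb10. Over all genes the term passed for 1509 without Set 4 and for 689 without Set 1, against 2484 with all Sets. The shares of all genes were not computed for these runs, so their counts are not read as a result about the 9. For Ciita the term did not pass without Set 1 or without Set 3. Cd74 passed with any single Set left out.

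Among the other lists of pathway genes, limma called 0 genes after adjustment, and the counts at an unadjusted p under 0.05 are given with each list, against 23.1% of all genes. Of 8 class I folding and peptide-trimming genes 5 lay below 0 and 3 above, with 1 at an unadjusted p under 0.05. That gene, the aminopeptidase gene Npepps, had a log2 difference of 0.35, and the chaperone gene Hspa5 of -0.41 (limma adjusted p = 0.207 and 0.234). The factors that bind the SXY module, the shared promoter element of MHC genes, had 6 of 11 tested members below 0 and 5 above, with 4 at an unadjusted p under 0.05 (23.1% of all genes were). The NF-Y subunit gene Nfyc averaged 797 ± 142 normalized counts in the controls and 549 ± 240.0 after knockdown (SD, n = 4; log2 -0.63, limma adjusted p = 0.113). Nfyc is the single member called in the authors' deposited table (log2 -0.56, adjusted p = 0.0461), which calls 5.22% of all genes lower and 4.09% higher. The histone acetyltransferase genes Crebbp and Kat2b were above 0, at log2 0.36 and 0.51 (limma adjusted p = 0.129 and 0.175).

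Interferon signalling genes split, with 9 of 16 tested members below 0, a median of -0.09 and 3 at an unadjusted p under 0.05. Irf8, an interferon regulatory factor of myeloid cells, measured 97.3, 59.8, 158 and 46.4 normalized counts in control libraries 1 to 4 and 53.0, 44.6, 73.5 and 23.6 in knockdown libraries 1 to 4. The authors' deposited table calls Irf8 (log2 -0.71, adjusted p = 0.0365) and the feedback inhibitor gene Socs3 (-0.85, 0.0267) lower, and 0 members higher. It calls 5.22% of all genes lower and 4.09% higher. Irf1, the factor that drives Tap1 and the immunoproteasome genes after interferon gamma, measured 219, 267, 532 and 952 normalized counts in control libraries and 336, 524, 825 and 753 in knockdown libraries, higher in 3 Sets (log2 0.47, limma adjusted p = 0.255).

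Among the genes named from these lists, the interferon-induced genes Cxcl10, Ifit3 and Oasl had the largest log2 differences. Of 12 interferon-induced genes tested, 7 lay below 0 and 5 above, and 5 were at an unadjusted p under 0.05 (23.1% of all genes were). The authors' deposited table calls 4 lower and 1 higher, against 5.22% and 4.09% of all genes. Ifit3, an antiviral protein gene, measured 136, 112, 112 and 51.2 normalized counts in control libraries 1 to 4 and 31.5, 22.7, 18.4 and 15.0 in knockdown libraries 1 to 4, with no overlap. The log2 difference was -2.14 (SE 0.234, limma adjusted p = 0.0578). Oasl (log2 -2.10, limma adjusted p = 0.0578), the chemokine gene Cxcl10 (-2.58, 0.0591) and Isg15 (-1.30, 0.0824) were lower in all 4 Sets as well. The gene the authors' deposited table calls higher is Ifit2 (log2 0.78, adjusted p = 0.0358), named here after its value was seen.

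Class I-related molecules outside peptide presentation had 4 of 5 tested members above 0 and 4 at an unadjusted p under 0.05 (23.1% of all genes were). The groups did not overlap for 2 of them, Fcgrt and Procr, against 6.34% of all genes. Fcgrt, the neonatal Fc receptor that pairs with B2m, measured 2344, 1520, 1633 and 2268 normalized counts in control libraries 1 to 4 and 3015, 2480, 2602 and 4755 in knockdown libraries 1 to 4, with no overlap. The log2 difference was 0.70 (SE 0.137, limma adjusted p = 0.0744), and the authors' deposited table calls it higher (log2 0.66, adjusted p = 0.00190). Hfe, the iron regulator that also pairs with B2m, had a log2 difference of 0.71 (limma adjusted p = 0.112), and Mr1, which presents vitamin metabolites, 0.58 (0.197). Procr, the endothelial protein C receptor gene, was lower without overlap, at 443 ± 84.7 normalized counts in control and 304 ± 30.3 in knockdown libraries (SD, n = 4). Its limma adjusted p was 0.102, and the authors' deposited table calls it lower (log2 -0.50, adjusted p = 0.0372).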

How the data were processed

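RNA was sequenced as single reads of 50 cycles. Per the submitters' processing notes, Novoalign 2.08.01, DESeq2 1.10.1 and build rn5 were used. What each did, and how reads were counted (gene models, strand, shared reads), is not stated there. The authors' signal values are, per the file headers, normalized; 100.0% of them are whole multiples of 1 read of their library within 0.001 reads, so the authors divided read counts by a size factor. The log2 fold changes and adjusted p-values in the authors' deposited table are their own.

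From these values, limma 3.58.1 (R 4.3.3) (trended variances) was fitted to log2(value + 1), group and Set being the terms, on the 12383 genes kept by edgeR's filterByExpr, with 2-sided tests and Benjamini-Hochberg adjustment over all of them at 0.05. Fold changes on that scale understate changes of genes with few reads. Libraries were paired by their labelled Set number, and those of a Set deviated together from their group means (correlations across genes from 0.681 to 0.805). edgeR 4.0.16 and DESeq2 1.42.0 were run on the recovered reads as alternatives. The scripts were tested on simulated data. Promoters are RefSeq's, build GRCr8.

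The genes, lists and motifs were chosen with earlier results of these data known. Named from each other list were up to 4 genes with the lowest limma p, the constitutive subunits of the ratios, all RT1 rows, and the 5 genes whose centred log2 profile lay closest to Tap1 and to Cd74. The Set term was tested after the values were seen. Figures were drawn with matplotlib 3.10.9. 1 motif searched is not reported here.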

Additional observations from a re-analysis of the deposited data

Results flagged for a closer look

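Within each group of 4 libraries, the gap between the most extreme library and its nearest neighbour was set against the group's range, with Dixon's 95% critical value as the limit. Of the 18 groups screened (9 genes, control and knockdown) 4 passed it. Chance gives about 1 in 20 for independent groups of normally distributed values. These groups share Sets and were screened on unlogged counts, so the 4 cannot be set against that rate. Psmb9 stood at 445 normalized counts in control library 4 (next highest 127) and at 287 in knockdown library 4 (next highest 100.2). Psmb8 stood at 139 in knockdown library 4 (next highest 51.9), and Cd74 at 233 in knockdown library 1 (next highest 34.1). In each case the other library of the same Set was the highest of its group too.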

How the results depend on the processing

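None of the 9 genes was called under any alternative run (lowest adjusted p 0.104, Nlrc5). Genes called over the whole table, 0 higher and 0 lower as reported, came to 14 and 16 with a pseudocount of 8, 513 and 646 in DESeq2 with the replicate block, and 69 and 94 in DESeq2 without it. Without the replicate block limma and edgeR (the latter added after seeing the data) each called 0 higher and 1 lower. At 0.01 in place of 0.05 the authors' deposited table calls 537 genes in place of 1140. A library without its partner carries no contrast in the blocked fit, so Sets were left out whole, and single libraries without the block. Genes below 0 numbered 8 of 9 as reported, and 7 without Set 4. With a single library and the block left out they numbered 5 without control library 4. They numbered 7, 6 and 9 without knockdown libraries 1, 3 and 4, and 8 in all other runs. With a Set left out, the log2 difference of B2m ran from -0.213 to 0.0128 (without Set 4), the Psmb9 to Psmb6 ratio from -0.349 to 0.104 and the Psmb10 to Psmb7 ratio from -0.174 to 0.0388 (both highest without Set 3). With single libraries left out and no block, signs turned for B2m (-0.24 to 0.16, and 0.0105 without knockdown library 1), Cd74 (-1.95 to 0.29, and 0.10 without control library 1), Ciita (-1.49 to 0.33), Psmb8 (-0.62 to 0.0640), Psmb10 (-0.58 to 0.18) and Tap1 (-0.22 to 0.55, and -0.0232 without control library 1). Nlrc5 (-1.70 to -0.76), Psmb9 (-0.996 to -0.0177) and Tapbp (-0.59 to -0.0936) stayed below 0, each nearest to 0 without control library 4. The Set term was called for 2484 genes, and for 689 to 3269 with a Set left out (1218 and 1509 without Sets 2 and 4). Among the 9 genes it was called for 8, and for 3 to 8 with a Set left out (4 without Set 1), and for 7 with TMM or a pseudocount of 0.5, where Psmb8 was at 0.0517 and 0.0512. The causes were not tested. Few reads limit Nlrc5, Ciita and Cd74.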

Other observations

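Ligands that accompany antigen presentation at the cell surface were measured too. Cd276 was higher in all 4 Sets, at 304, 562, 482 and 1162 normalized counts in control libraries 1 to 4 and 450, 805, 610 and 1334 in knockdown libraries 1 to 4 (log2 0.40, limma adjusted p = 0.117). Cd80, a T cell co-stimulator, had a log2 difference of 0.62 (limma adjusted p = 0.208). The adhesion genes Vcam1 and Icam1 lay below 0, at -1.14 and -0.67 (limma adjusted p = 0.188 and 0.225). Vcam1 was higher with knockdown in Set 1, at 4732 and 5969 normalized counts, and lower in Sets 2 to 4. Endosomal genes split, with Cd63 and the protease gene Ctsd lower in all 4 Sets (log2 -0.47 for each, limma adjusted p = 0.169 and 0.181) and Ctsb higher in all 4 (0.33, 0.315). The Cd74 ligand gene Mif was level, at 426 ± 81.5 and 434 ± 50.8 normalized counts (SD, n = 4).

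The genes whose profile over the 8 libraries lay closest to that of Tap1 were Smagp, Mocos, Myadm, the interferon gamma receptor gene Ifngr2 and Fam172a. Their root mean square distances were 0.136 to 0.219 on the log2 scale, where the profile of Tap1 itself departs from its mean by 0.725. Ifngr2 measured 304, 425, 558 and 1278 normalized counts in control libraries 1 to 4 and 376, 557, 615 and 1159 in knockdown libraries 1 to 4. Closest to Cd74 were Tfec, RT1-Ba, LOC688553, Pcdh18 and Txlnb, at 0.425 to 0.629, against 2.31 for Cd74 itself. Tfec, a factor known from macrophages, measured 94.6, 25.2, 0 and 19.3 normalized counts in control libraries 1 to 4 and 105, 21.1, 0 and 8.58 in knockdown libraries 1 to 4. The 8 libraries share Sets, so these likenesses are descriptions.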
